A study of Mus musculus with 10 samples.

Results

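STING (gene symbol Tmem173), its kinase Tbk1 and transcription factor Irf3, the DNA exonuclease Trex1 and 5 DNA sensors of the HIN-200 family (Aim2, Ifi204, Ifi207, Ifi213 and Mndal) were followed in RNA-seq libraries of microglia, the resident macrophages of the brain. These 9 genes were taken by symbol from the 53697 genes in the deposited files, selected on their estimated counts in DKO against WT libraries with those values known, so their differences, and counts of them past a threshold, are a description and not a test. The libraries came from female, untreated mice on a C57BL/6 background, 5 from wild-type (WT) mice and 5 from Bhlhe40–/–Bhlhe41–/– double knockout (DKO) mice. The sources describe the WT mice as C57BL/6J or Rosa26Stop-YFP and also as littermates, give ages of at least 2 and 6 months without tying them to libraries, and do not say whether a library is 1 mouse. The knockout is in every tissue of the mouse, so loss of both repressors is not confined to microglia. Cells of the perfused brain without olfactory bulb and cerebellum were sorted as viable CD45.2+ CD11b+ cells lacking Ly6C, Ly6G, MHCII and CD38. Libraries are named by genotype and replicate number, and levels are given in CPM, estimated counts scaled to a common library size with TMM factors.

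Cytosolic DNA is an alarm signal in mammalian cells. The enzyme cGAS binds it and makes a cyclic dinucleotide that activates STING on the endoplasmic reticulum, STING recruits the kinase TBK1, and TBK1 phosphorylates IRF3, which then switches on type I interferon genes. TREX1 degrades DNA before it can trigger this route, while the HIN-200 proteins bind DNA through their HIN domains, AIM2 to build an inflammasome and several of the others under the control of interferon itself. In the brain, microglia are known for their strong expression of STING.

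The libraries held 23382114 to 25871082 estimated counts in WT and 22483284 to 26109349 in DKO microglia. WT 1 and WT 5 stood apart on the first principal component of log2 CPM, at -70.1 and -76.8, while WT 3, at 13.5, lay nearest to the DKO libraries (21.1 to 54.4). Mitochondrial RNA made up 1.75%, 1.54% and 1.58% of counts in WT 1, WT 5 and DKO 3, and 0.986% to 1.16% in the other 7. Bhlhe40 RNA was lower in DKO microglia (0.601 ± 0.385 CPM in WT, 0.177 ± 0.136 in DKO libraries, SD over 5 libraries, two-sided exact permutation p = 0.0476), whereas Bhlhe41 RNA was higher (35.9 ± 6.67 and 50.9 ± 8.45 CPM, exact permutation p = 0.0238), with an assumed transcript length of 5878 to 6133 bases in WT but 1852 to 2719 bases in DKO libraries. The Bhlhe40 values rest on 4 to 28 counts per WT library and 1 to 8 per DKO library, and WT 1 lay within the DKO range. All 9 microglia markers were tested, with summed levels of 77730 to 85770 CPM in WT and 72950 to 86990 CPM in DKO libraries, and 1 of them, P2ry12, was lower (edgeR adjusted p = 0.0301). Of 6 border macrophage markers, Lyve1 and Cd163 were at 0 in every library and Mrc1 stood at 8.19 and 11.1 CPM, but Pf4 was higher in DKO microglia (0.149 and 3.91 CPM, log2 fold change 4.67, edgeR adjusted p = 0.000518). Pax5, S100a8 and S100a9, of B cells and neutrophils, were at 0 throughout, while the B cell genes Ighm (490 and 622 CPM) and Cd79b (65.8 and 86.6 CPM) were not, and neither passed the test. The part of these markers in the differences below was not tested. Of the marker lists for other cell types, those of endothelium and astrocytes had sums that did not overlap between genotypes, and their values are given beside Tmem173.

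STING RNA was lower in every DKO library than in any WT library, and DNA sensor genes of the HIN-200 family split by member. Tbk1 and Irf3 differed less than STING, and their genotypes overlapped. Of the 9 genes, 8 had enough counts to be tested, and 1 of them, Ifi213, passed the threshold upward and 1, Tmem173, passed it downward in the edgeR test across all genes (Benjamini-Hochberg adjusted p under 0.05). Over all 13916 genes tested, 6.19% passed, 4.34% upward and 1.85% downward. The genotypes did not overlap for 3 of the 8 genes (Tmem173, Aim2 and Ifi213), against 7.62% of all tested genes. Of the 8 log2 fold changes, 4 were above 0 and 4 below, with a median of -0.03 beside -0.01 for all tested genes. Because the genes were picked with this contrast known, nothing is read from these counts. In bulk RNA, fewer cells of a type and less RNA per cell cannot be told apart.

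**Figure D1:**
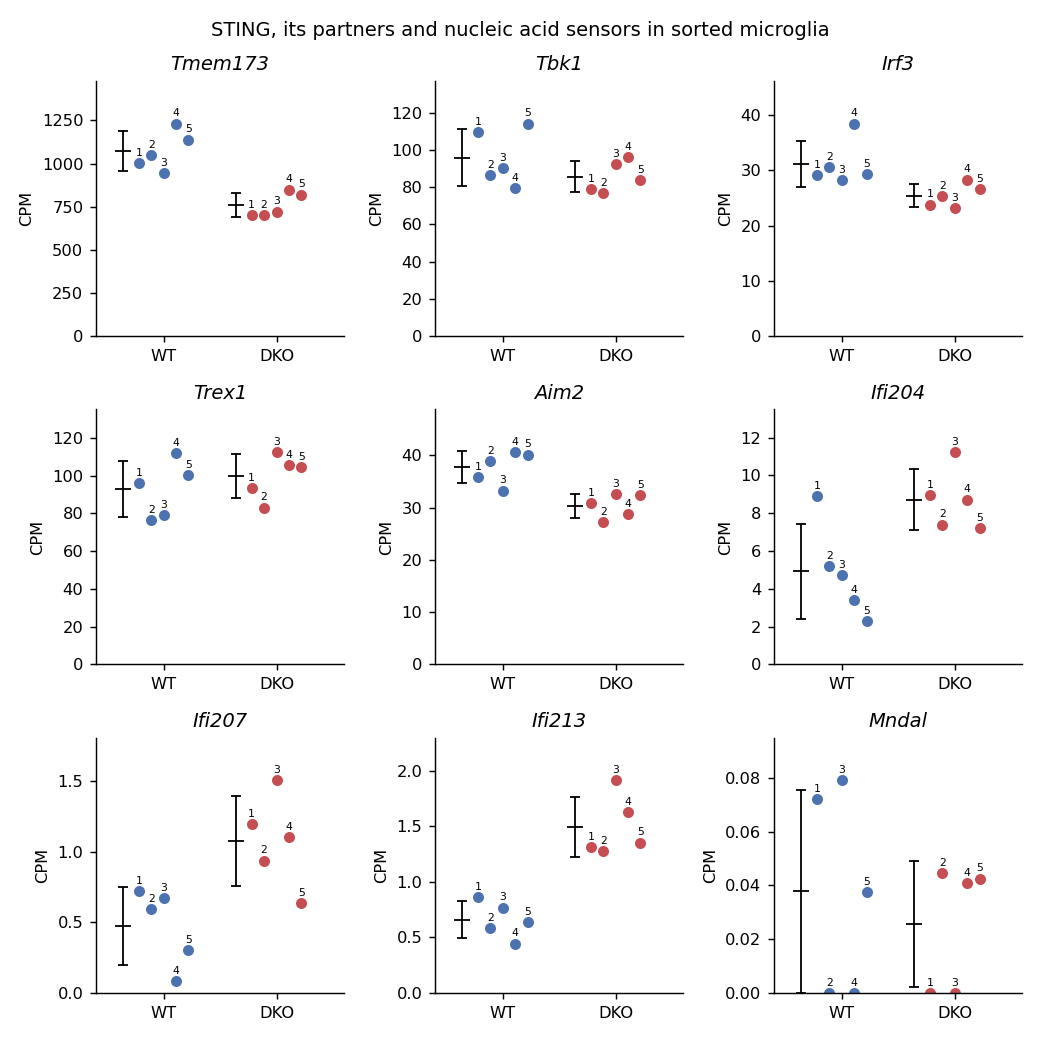
Level of each of the 9 genes in CPM (linear axes from 0, a separate scale for each gene) in the 5 WT and 5 DKO libraries, with 1 point per library labelled by its replicate number and a bar for the mean ± SD. Tmem173, Aim2 and Ifi213 have no overlap between genotypes, Ifi204 overlaps only because WT 1 lies among the DKO libraries, and Mndal is at 2 counts or fewer in every library.

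Tmem173 encodes STING itself, the adaptor on which DNA signals converge. Its levels were 1002, 1047, 944, 1232 and 1139 CPM in WT 1 to WT 5 and 701, 699, 722, 848 and 820 CPM in DKO 1 to DKO 5. The highest DKO library lay below the lowest WT library, and within each genotype the libraries numbered 4 and 5 were the highest. The means were 1073 ± 114 CPM in WT against 758 ± 70.9 CPM in DKO microglia (SD over 5 libraries), a log2 fold change of -0.50 (SE 0.10, 95% interval -0.71 to -0.29) or a level 29.3% lower. Within the libraries numbered 1 to 3 the log2 fold change was -0.50, and within those numbered 4 and 5 it was -0.51, so the difference was of the same size in both sets although their levels were not. Its estimated counts, 15677 to 30268 per library, were whole numbers (within 0.01) in all 10 libraries and its assumed transcript length was the same 2302 bases throughout. No stretch of its transcripts as long as 100 bases recurs in another annotated gene. Tmem173 lies on the minus strand of chromosome 18, at 35733679 to 35740554 (GRCm38, GENCODE M21).

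The summed endothelial and astrocyte markers were, like Tmem173, lower in DKO libraries, but these sums rested on Pecam1 and on Slc1a3. The 5 endothelial markers summed to 41.1 to 63.5 CPM in WT and 11.2 to 18.6 CPM in DKO libraries. Of the 3 that were tested (Pecam1, Kdr and Flt1), Pecam1, an adhesion molecule that some leukocytes also carry, was lower in DKO microglia (44.1 and 5.09 CPM, log2 fold change -3.12, edgeR adjusted p = 7.71e-06), while Kdr stood at 7.76 and 8.99 CPM and Flt1 at 0.574 and 0.609 CPM. Cldn5, the tight junction protein that defines brain endothelium, had too few counts to be tested and was near 0 in both genotypes (0.0144 and 0.0342 CPM). The 6 astrocyte markers summed to 240.3 to 395 CPM in WT and 155 to 208 CPM in DKO libraries. This rested on the glutamate transporter gene Slc1a3 (304 and 171 CPM, log2 fold change -0.83, edgeR adjusted p = 0.00401), while Aqp4 stayed near 0 (0.129 and 0.135 CPM). Gfap (0.203 and 0.475 CPM) and Slc1a2 (0.435 and 0.649 CPM) had higher means in DKO libraries. Aldh1l1 (0.794 and 0.302 CPM) and Gja1 (0.727 and 0.664 CPM) had lower ones, and none of these passed. Their part in the STING difference was not tested.

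The gene whose level over the 10 libraries was most like that of Tmem173 was P2ry12, the purinergic receptor that marks homeostatic microglia. The measure was the mean absolute difference in log2 CPM after each gene's own mean was subtracted, and it was 0.056 for P2ry12 and 0.059 for both Abhd6, a monoacylglycerol hydrolase, and Mmgt2, a membrane magnesium transporter. P2ry12 was read at 10520, 10010, 9083, 12260 and 11950 CPM in WT 1 to WT 5 and at 6406, 7174, 7268, 8402 and 8798 CPM in DKO 1 to DKO 5. Like Tmem173 it was lowest in WT 3 among the WT libraries and higher in libraries 4 and 5 than in 1 to 3 of the same genotype. Its log2 fold change was -0.50, as it was for Tmem173. Genes named here and below as most like a member were picked on these same libraries. A shared order or fold change follows from that choice and is no further evidence.

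**Figure D2:**
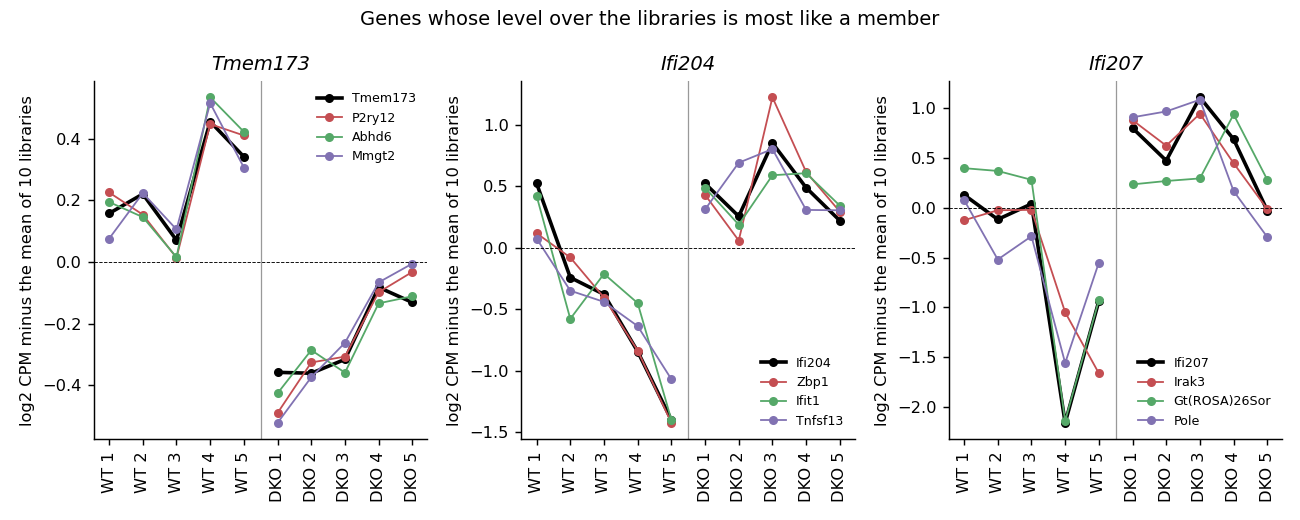
Level of Tmem173, Ifi204 and Ifi207 in each library (black) beside the 3 genes whose pattern was most like each, as log2 CPM minus the gene's mean over the 10 libraries. Tmem173 and P2ry12 share both the drop in DKO libraries and the higher values of libraries 4 and 5, Ifi204 tracks Zbp1 and Ifit1, and Ifi207 and Gt(ROSA)26Sor are both lowest in WT 4 and WT 5.

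The kinase and the transcription factor below STING showed smaller differences, of the same sign. Tbk1, the kinase that STING recruits, was read at 109.6, 86.3, 90.1, 79.3 and 114 CPM in WT 1 to WT 5 and at 79.0, 76.9, 92.3, 96.2 and 83.9 CPM in DKO 1 to DKO 5. The genotypes overlapped, and the 2 highest values were those of WT 1 and WT 5, the libraries that stood apart. This gave a log2 fold change of -0.16 (SE 0.12, 95% interval -0.42 to 0.10), from 95.9 ± 15.2 to 85.7 ± 8.33 CPM (SD over 5 libraries). Without WT 1 and WT 5 it was 0.01.

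Among the 7 members with a promoter window, only Tbk1 had a palindromic E-box in it, and the site is shown because CACGTG (capitals, read on both strands, which are the same) is the sequence that BHLHE40 and BHLHE41 bind. The RefSeq promoter windows for GRCm38.p6 run from 250 bases before to 50 bases after a transcript's start. None was found under the symbols Tmem173 and Ifi204, and other names of Tmem173 were not searched, so these promoters were not examined. CACGTG occurs in 7.15% of all 32851 windows, and the match in Tbk1, on the minus strand at chr10:121586774-121586799, begins 6 bases from the start. A match is a description of the letters only.
Tbk1: cgcactcggtCACGTGctccgtggcc

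Irf3, which TBK1 phosphorylates, was read at 29.1, 30.6, 28.3, 38.5 and 29.3 CPM in WT 1 to WT 5 and at 23.8, 25.3, 23.1, 28.3 and 26.6 CPM in DKO 1 to DKO 5. The ranges touched, DKO 4 lying just above WT 3, and WT 4 was well above the other WT libraries. The log2 fold change was -0.29 (SE 0.11, 95% interval -0.54 to -0.05), from 31.2 ± 4.19 to 25.4 ± 2.11 CPM (SD over 5 libraries), and it was -0.29 in libraries 1 to 3 and -0.31 in libraries 4 and 5. Irf3 lies on the plus strand of chromosome 7, at 44997648 to 45002848, and shares 1065 bases with Bcl2l12 on the opposite strand. The library kit keeps no strand, and Bcl2l12 had 140 to 168 counts in WT and 116 to 136 counts in DKO libraries where Irf3 had 715 to 936 and 539 to 695.

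Trex1, the exonuclease that clears cytosolic DNA, did not part the genotypes. It was read at 95.9, 76.3, 79.3, 111.9 and 100.3 CPM in WT 1 to WT 5 and at 93.3, 83.1, 112.5, 105.7 and 104.4 CPM in DKO 1 to DKO 5. The ranges covered each other almost wholly, with a log2 fold change of 0.11 (SE 0.13, 95% interval -0.17 to 0.38). The 1802 bases of Trex1, on the minus strand of chromosome 9 at 109057933 to 109059734, lie within Atrip on the same strand, and 91.7% of the 100-base stretches of Trex1 transcripts also belong to another gene. Its counts are thus estimates that divide shared reads, and they were not whole numbers in any of the 10 libraries. Atrip had 473 to 622 counts in WT and 400.4 to 481 in DKO libraries, beside 1797 to 2722 and 1863 to 2623 for Trex1.

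The DNA sensors of the HIN-200 family lie together on chromosome 1, where 13 family genes span 680932 bases from 173350879 to 174031810 (GRCm38, GENCODE M21). Among the members, all but Aim2 share part of their transcript sequence with other family genes. A stretch of 31 bases found in another family gene made up 28.6% of the stretches in Ifi204 transcripts, 12.2% in Ifi207, 25.6% in Ifi213 and 24.0% in Mndal, but none in Aim2. Stretches of 100 bases were shared for 10.7%, 0.3%, 3.3% and 5.9% of them. The counts of Ifi204 and Ifi213 were not whole numbers in any library, so the split of reads between genes enters their values.

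The promoters of the family carry a shared element, printed here because 3 of the 4 HIN-200 members with a window hold it (no window was found for Ifi204). The core of the interferon-stimulated response element, GAAA, then any 2 bases, then GAAA, on either strand (in capitals below), occurs in 3.44% of all windows. It was found in 9 of the 12 family genes that have a window. A gene with several windows counted if any of them held the core, so this count is per gene and the share above is per window. Family genes also share sequence, so their matches are not separate occurrences. Among the members it was in the windows of Ifi207, Ifi213 and Mndal and not in that of Aim2, and of the other members Irf3, Trex1 and Tbk1 lacked it too. The Ifi207 stretch is at chr1:173741831-173741860, the Ifi213 stretch at chr1:173599326-173599355 and those of the Mndal windows at chr1:173880204-173880233 and chr1:173879993-173880022, all on the minus strand. The 30 bases of Ifi213 are letter for letter those of Ifi208, and the 30 bases of the first Mndal stretch are those of Ifi203. Of 11 matches in the family, 7 have the same 10 letters as Ifi213. The STAT site TTCNNNGAA, in 8.3% of all windows, was in none of the 7 members' windows.
Ifi207: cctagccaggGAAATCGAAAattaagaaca
Ifi213: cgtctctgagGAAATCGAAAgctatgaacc
Mndal: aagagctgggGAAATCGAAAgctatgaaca
Mndal, other window: ttttgagtcaTTTCTCTTTCtactcaaaac

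Aim2, the sensor that nucleates an inflammasome on cytosolic DNA, was lower in every DKO library than in any WT library. Levels were 35.9, 38.9, 33.3, 40.7 and 40.2 CPM in WT 1 to WT 5 and 30.8, 27.2, 32.6, 28.8 and 32.4 CPM in DKO 1 to DKO 5. The gap between the groups was small, from 32.6 CPM in DKO 3 to 33.3 CPM in WT 3. The log2 fold change was -0.31 (SE 0.10, 95% interval -0.52 to -0.10), from 37.8 ± 3.13 to 30.4 ± 2.33 CPM (SD over 5 libraries).

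The transcript length assumed for Aim2 bears on its value. That length averaged 1189 ± 49.2 bases in WT and 1093 ± 103 bases in DKO libraries (SD over 5 libraries). Per kilobase of effective length Aim2 stood at 33.1 ± 4.40 CPM in WT against 29.6 ± 5.57 CPM in DKO microglia, with overlapping ranges. With effective length as an offset in the fit, the log2 fold change was -0.16. Aim2 overlaps Cadm3 on the opposite strand, which had at most 6.49 counts in any library. The genes most like Aim2 over the libraries were Oard1, Coq10b and Bud23, at mean absolute differences of 0.055, 0.058 and 0.059 on the log2 scale.

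Ifi204, a HIN-200 protein that was proposed as a DNA sensor upstream of STING, was higher in most DKO libraries. Its levels were 8.92, 5.21, 4.73, 3.42 and 2.30 CPM in WT 1 to WT 5 and 8.95, 7.40, 11.2, 8.72 and 7.22 CPM in DKO 1 to DKO 5. WT 1 lay among the DKO libraries and the other 4 WT libraries lay below all of them. From WT to DKO the log2 fold change was 0.82 (SE 0.31, 95% interval 0.15 to 1.49), from 4.92 ± 2.51 to 8.71 ± 1.61 CPM (SD over 5 libraries). Without WT 1 it was 1.15. It was 0.54 in libraries 1 to 3 and 1.48 in libraries 4 and 5, and this difference between sets was not tested.

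The genes most like Ifi204 were Zbp1, a sensor of Z-form nucleic acid, Ifit1, an interferon-induced RNA-binding protein, and Tnfsf13, a cytokine of the TNF family, at mean absolute differences of 0.149, 0.16 and 0.212 on the log2 scale. Zbp1 was read at 1.91, 1.66, 1.30, 0.946 and 0.602 CPM in WT 1 to WT 5, the same order as Ifi204, and was highest, like Ifi204, in DKO 3 (4.20 CPM). WT 5, which was lowest for Ifi204, also had the lowest mean level of 47 interferon-stimulated genes, -0.47 on the centred log2 scale, while WT 1 was the highest of the WT libraries (-0.01) and DKO 3 the highest of all (0.37). Between these the order differed from that of Ifi204, with WT 4 (-0.12) above WT 3 (-0.15) and WT 2 (-0.24). The lowest DKO library was DKO 2 (0.05) for the list and DKO 5 for Ifi204. Ifit1 is among the 47 genes, and a link between the list and Ifi204 was not tested.

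Ifi213 was higher in every DKO library than in any WT library, at a low level. Levels were 0.866, 0.582, 0.769, 0.444 and 0.635 CPM in WT 1 to WT 5 and 1.31, 1.28, 1.91, 1.63 and 1.35 CPM in DKO 1 to DKO 5. These values rest on 10.8 to 24.0 counts in a WT library and 28.7 to 44.6 in a DKO library. Its log2 fold change was 1.18 (SE 0.24, 95% interval 0.66 to 1.70), from 0.659 ± 0.164 to 1.50 ± 0.270 CPM (SD over 5 libraries). Within libraries 1 to 3 alone the log2 fold change was 1.03, and within 4 and 5 alone it was 1.44. Its most similar genes were Anxa4, a calcium-dependent phospholipid-binding annexin, Ifitm3, an interferon-induced block to virus entry, and Prr5l, at 0.168, 0.168 and 0.169.

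Ifi207 had fewer counts still, 2 to 20 per WT library and 15 to 35.1 per DKO library. It was read at 0.721, 0.594, 0.672, 0.0823 and 0.301 CPM in WT 1 to WT 5 and at 1.20, 0.937, 1.51, 1.10 and 0.638 CPM in DKO 1 to DKO 5. DKO 5 fell within the range of the WT libraries and the other 4 DKO libraries lay above it. The log2 fold change was 1.17 (SE 0.44, 95% interval 0.20 to 2.14), from 0.474 ± 0.273 to 1.08 ± 0.320 CPM (SD over 5 libraries).

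WT 4 and WT 5 were the lowest libraries for Ifi207 and for Ifi204. Within libraries 1 to 3 the log2 fold change of Ifi207 was 0.86, and within libraries 4 and 5 it was 2.13. Of the genes most like Ifi207, which were Irak3, Gt(ROSA)26Sor and Pole (0.289, 0.317 and 0.318), Gt(ROSA)26Sor is the noncoding RNA of the Rosa26 locus that the Rosa26Stop-YFP allele alters. It was read at 4.94, 4.84 and 4.54 CPM in WT 1 to WT 3, at 0.781 CPM in WT 4 and 1.92 CPM in WT 5, and at 4.40 to 7.21 CPM in DKO libraries. The labels do not say which WT libraries carry that allele, and the part of strain in the values of Ifi204 and Ifi207 was not tested.

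Mndal, another interferon-inducible gene of the family, was near absent. It had 2, 0, 2, 0 and 1 counts in WT 1 to WT 5 and 0, 1, 0, 1 and 1 counts in DKO 1 to DKO 5, 5 and 3 counts in all, and was not tested. A difference between genotypes was not detectable at this depth. Mndal shares 22085 bases with Ifi203 and 16702 bases with Ifi211 on the same strand.

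**Figure D3:**
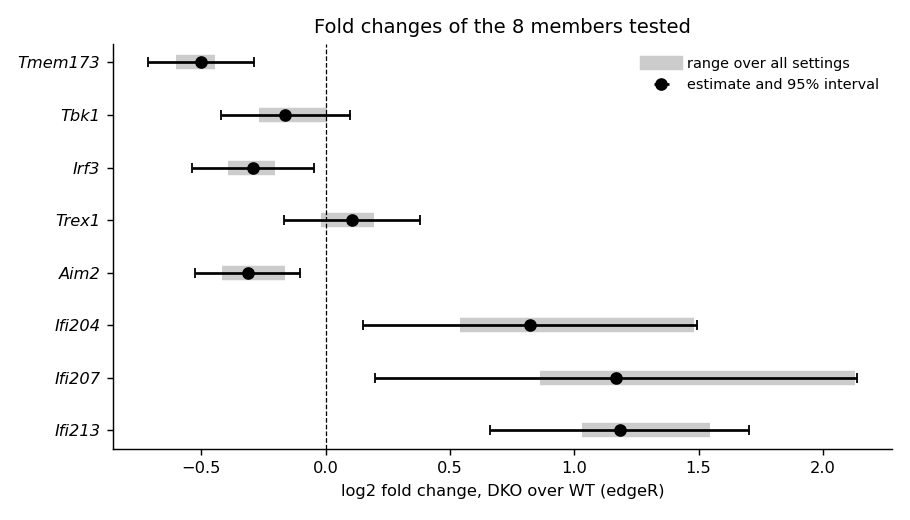
Log2 fold change, DKO over WT, of the 8 genes tested (points), with the 95% interval of the edgeR fit (bars) and the range over 12 alternative settings and the leaving out of each library (grey). Tmem173 and Aim2 stay below 0 and the 3 HIN-200 genes Ifi204, Ifi207 and Ifi213 above 0 in all of these settings, while the ranges of Tbk1 and Trex1 reach across 0.

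Set against each other per kilobase of effective length, the 9 genes stood in the same order of mean level in both genotypes. Tmem173 led with 507 ± 52.4 CPM per kilobase in WT against 355 ± 31.7 in DKO microglia (SD over 5 libraries), followed by Trex1 with 140.5 ± 22.1 and 149.6 ± 16.9, so STING exceeded Trex1 by 3.61 times in WT and 2.37 times in DKO microglia. Irf3 (38.9 and 32.3), Tbk1 (34.3 and 31.9) and Aim2 (33.1 and 29.6 CPM per kilobase) came next, and neighbours among them overlapped in their ranges. Ifi204 followed at 2.17 and 3.73 CPM per kilobase, apart from Aim2 above and Ifi213 below it in both genotypes. Ifi213 (0.294 and 0.860) and Ifi207 (0.138 and 0.306) overlapped in WT but not in DKO microglia, and Mndal came last (0.0288 and 0.0307).

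The other HIN-200 genes were below the level of Aim2 in every library, and none passed the test. Ifi209 was read at 3.47 to 8.36 CPM in WT and 7.51 to 11.1 CPM in DKO libraries (log2 fold change 0.46, edgeR adjusted p = 0.236) and Ifi206 at 0.0425 to 0.731 and 0.487 to 2.30 CPM (1.69, adjusted p = 0.135). Ifi211 (0.30), Ifi214 (0.29) and Ifi208 (-0.18) did not pass either, and Ifi208 took the opposite sign without WT 1. Ifi203 and Ifi205 had too few counts to be tested and Ifi202b was at 0 in every library. Of these 5 genes 0 passed in either direction with edgeR, with DESeq2 and with limma voom, and 1 was higher and 0 lower at an unadjusted edgeR p under 0.05. Over all 13916 tested genes, 13.3% (1848 genes) were higher and 1396 genes lower at an unadjusted p under 0.05, 7.72% and 4.02% passed with DESeq2, and 6.24% and 2.08% with limma voom.

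Because reads can be split between genes that share sequence, the counts of the 13 family genes were also added up. The sums hold the members, so they too are a description. With Aim2 the family stood at 53.0 ± 4.07 CPM in WT against 54.4 ± 5.75 CPM in DKO microglia (SD over 5 libraries, log2 fold change 0.04, SE 0.10). Without Aim2 it stood at 15.2 ± 5.79 and 24.0 ± 4.58 CPM (0.65, SE 0.25), with ranges of 8.20 to 23.5 and 19.8 to 31.7 CPM that overlapped.

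**Figure D4:**
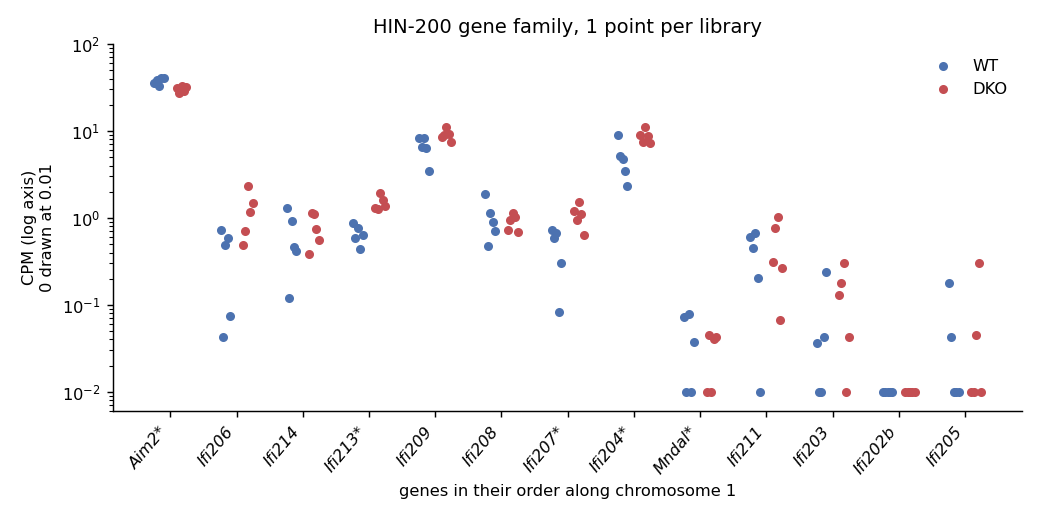
Level of the 13 HIN-200 genes in CPM (log axis, with 0 drawn at 0.01) in their order along chromosome 1, with 1 point per library and members marked by an asterisk. Aim2, Ifi204 and Ifi209 are the only genes above 3 CPM in any library, Aim2 is lower in DKO libraries, and Ifi213 is higher.

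The other genes of nucleic acid sensing were counted from 9 lists written by role, like the members with earlier results of these data known. Of the 175 tested genes in them that are not members, 20 were higher in DKO microglia (11.4%) and 2 lower (1.14%), beside 4.34% and 1.85% of all tested genes. Their median log2 fold change was 0.14, and 69.1% were above 0 where 48.7% of all tested genes were. Because the lists were written with earlier results known, these shares are a description and not a test, and nothing is read from them. The same holds for the counts of each list below.

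Around STING itself, 12 genes of the cGAS-STING axis other than the members were tested. Irf7, the interferon-induced transcription factor, was read at 4.55 to 6.66 CPM in WT and 8.21 to 13.9 CPM in DKO libraries and rose (log2 fold change 0.98, edgeR adjusted p = 0.00565). Enpp1, which hydrolyses the dinucleotide that activates STING, rose from 10.7 to 14.0 CPM across WT to 17.9 to 20.9 CPM across DKO libraries (0.60, adjusted p = 0.00747). Nfkb1, a subunit of the transcription factor NF-kappaB that STING signalling also engages, fell from 184 to 221 CPM to 119 to 155 CPM (-0.51, adjusted p = 0.0116). Each of these 3 passed with any single library left out.

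Cgas, the enzyme that makes the STING ligand, was read at 5.54, 17.6, 18.0, 15.0 and 5.49 CPM in WT 1 to WT 5 and at 22.6, 25.4, 22.4, 26.2 and 23.5 CPM in DKO 1 to DKO 5. Every DKO library was above every WT library, and the 2 lowest values were those of WT 1 and WT 5. The log2 fold change of 0.96 (SE 0.33) did not pass (edgeR adjusted p = 0.104) but did with DESeq2, with limma voom and without WT 3. Without WT 1 and WT 5 it was 0.51 and did not pass. Ikbke, the kinase closest to Tbk1, had at most 14.0 counts in a library and Ifnb1, the interferon gene that IRF3 switches on, at most 4, and neither was tested.

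Among the genes that move or modify STING, 27 were tested, 2 were higher and 0 lower with edgeR, 7 and 2 at an unadjusted p under 0.05, 4 and 0 with DESeq2, and 3 and 0 with limma voom. Tmed2, a cargo receptor between endoplasmic reticulum and Golgi (log2 fold change 1.75, adjusted p = 0.023), and Zdhhc7, a palmitoyltransferase (2.53, adjusted p = 0.029), were the 2 that rose. Both were uneven among DKO libraries, Zdhhc7 lying at 42.5 to 73.5 CPM in DKO 1, DKO 2 and DKO 5 but at 8.07 and 7.98 CPM in DKO 3 and DKO 4, below the 10.2 CPM of WT 3. With 1 library left out, each passed only without WT 3, DKO 3 or DKO 4.

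Few genes of the inflammasome, the complex that AIM2 nucleates, passed. Of 13 tested, 0 were higher with edgeR (1 at an unadjusted p under 0.05, 0 with DESeq2 and with limma voom) and 1 was lower, Nlrp3, the sensor of another inflammasome (18.8 and 12.3 CPM, log2 fold change -0.61, adjusted p = 0.046), which passed in 2 of the 10 fits with 1 library left out (-0.76 to -0.43 over all settings). Pycard, the adaptor ASC that AIM2 recruits, stood at 245 ± 17.3 CPM in WT against 247 ± 36.1 CPM in DKO microglia, and Casp1, the protease it activates, at 36.6 ± 3.62 and 36.4 ± 2.42 CPM (SD over 5 libraries). Their log2 fold changes were 0.01 (95% interval -0.22 to 0.25) and -0.01 (-0.22 to 0.20).

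Among nucleases and enzymes of nucleotide pools, which like TREX1 limit the nucleic acid a cell can sense, 19 genes other than Trex1 were tested and 2 rose. Samhd1, which hydrolyses deoxynucleotides, rose from 50.9 to 94.2 CPM (log2 fold change 0.89, SE 0.09, edgeR adjusted p = 0.000149), without overlap. Dnase1l1, an enzyme of the DNase I family, rose from 4.75 to 7.49 CPM (0.66, adjusted p = 0.0392). With 1 library left out Samhd1 passed each time and Dnase1l1 2 of 10 times (0.37 to 0.72 over all settings).

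The sensors of RNA and of endosomal nucleic acid form parallel routes. Of 19 genes tested in the RNA sensor list, which also holds genes of necroptosis, 3 rose. They were Oas1a, an oligoadenylate synthetase (log2 fold change 0.89, edgeR adjusted p = 0.00952), Ripk3, the kinase of necroptosis (0.58, adjusted p = 0.0145), and its effector Mlkl (1.36, adjusted p = 0.0426). Mlkl rested on 7 to 16 counts per WT library and 13 to 36 per DKO library, and its genotypes overlapped. Ddx58, which encodes RIG-I (0.04), Ifih1, which encodes MDA5 (0.26), and their adaptor Mavs (0.16) did not pass. Of 19 endosomal genes 1 passed, the endosomal histidine transporter Slc15a4 (2.18, adjusted p = 0.0288), and Tlr7 (0.20) and Tlr9 (-0.08) did not. With 1 library left out, Oas1a and Ripk3 passed each time (Ripk3 did not with WT 1 and WT 5 both left out or under the replicate block), Mlkl 2 of 10 times (log2 fold changes 1.16 to 1.58 over all settings), and Slc15a4, like Zdhhc7, only without WT 3, DKO 3 or DKO 4.

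Interferon receptors and targets lie at the end of the route. Of 14 interferon ligand, receptor and signalling genes tested, Usp18, a brake on the interferon receptor (log2 fold change 0.84, edgeR adjusted p = 0.0195), the receptor chain Ifnar2 (0.45, adjusted p = 0.0333) and the cytokine Il6 (0.77, adjusted p = 0.0437) were among those that rose. With 1 library left out, Usp18 failed only without DKO 1, while Ifnar2 and Il6 each passed 3 of 10 times, with log2 fold changes of 0.30 to 0.52 and 0.50 to 1.23 over all settings. Of 47 interferon-stimulated genes 6 rose and 0 fell with edgeR (14 and 0 at an unadjusted p under 0.05, 7 and 0 with DESeq2, 6 and 0 with limma voom), with Ifitm3 (1.19, adjusted p = 0.00273), Ifi27l2a (1.20, adjusted p = 0.0053) and Sp100 (1.05, adjusted p = 0.0272) among them. Ifitm3 and Ifi27l2a passed with any library left out, and Sp100 failed without WT 4, DKO 1 or DKO 2. The number that rose was 3 with upper-quartile factors, with library size alone and under the replicate block, 0 in libraries 1 to 3 and in libraries 4 and 5, and 2 to 8 with 1 library left out (2 without DKO 1 or DKO 2, 3 without WT 2, WT 4, DKO 3 or DKO 5, and 8 without WT 1). The list's median was 0.26 and 40 of the 47 were above 0, which became 31 with upper-quartile factors, where the median of all tested genes was -0.11.

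**Figure D5:**
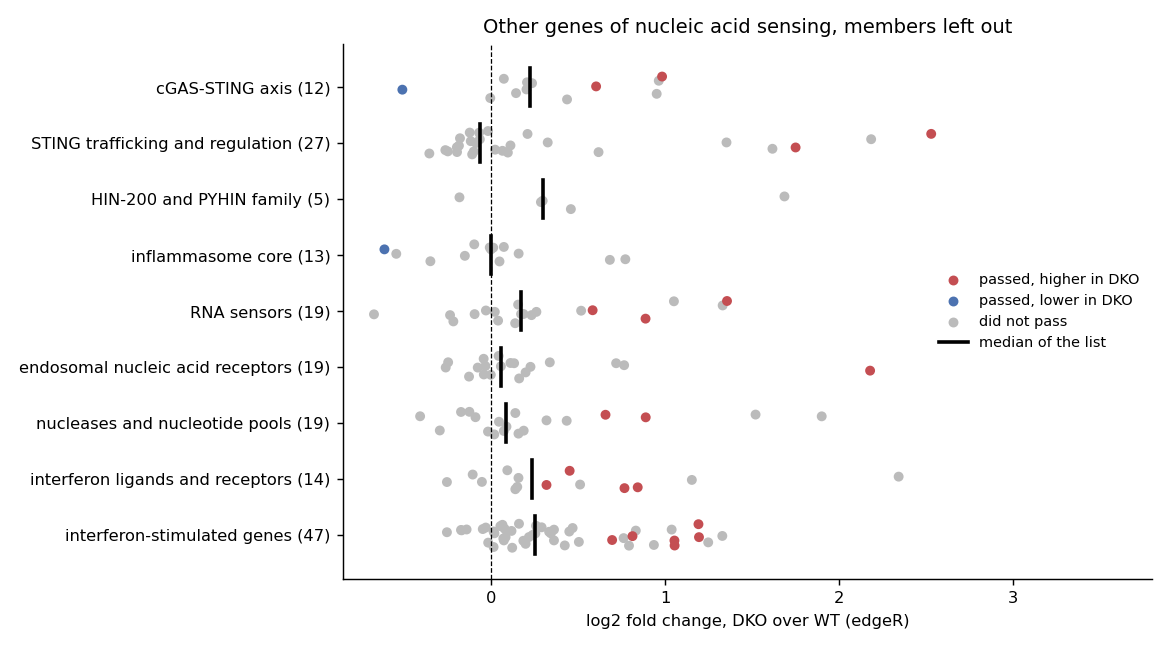
Log2 fold change, DKO over WT, of the tested genes in 9 lists of nucleic acid sensing (members left out, number tested in parentheses), with 1 point per gene coloured by whether it passed the edgeR threshold and a vertical line at the list's median. Most of the genes that passed are higher in DKO microglia, the median of 47 interferon-stimulated genes is 0.26, and Nfkb1 and Nlrp3 are the 2 that are lower.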

How the data were processed

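RNA of sorted microglia was sequenced in 5 WT and 5 DKO libraries (TruSeq RNA v2). Per the labels and the study's methods, the authors used cutadapt 2.6 for trimming, FastQC 0.11.8 for quality control and STAR 2.5.3a for alignment to mm10. In the sources used here, the tool and annotation behind the gene values are not given. For every gene the authors deposited an estimated count, which is not normalized and need not be whole, besides a length, an effective length and a TPM that was not used.

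Estimated counts were rounded to whole numbers, filtered with filterByExpr (minimum count 10), scaled by TMM and tested DKO over WT with edgeR 4.0.16 (glmQLFit, glmQLFTest, no further term) in R 4.3.3, with Benjamini-Hochberg adjustment over all 13916 genes and a threshold of 0.05. The code of the fit was also run on counts simulated without outlying libraries or shared reads, so that run cannot speak to these features of the data. Fold changes, standard errors and 95% intervals come from the fit to the deposited counts. CPM use the same factors, and spreads are SDs of 5 libraries. The labels call the libraries of each genotype biological replicates but do not say whether each is 1 mouse. The p-values thus measure only the spread between libraries, and intervals on few counts are wide. The fit was repeated with RLE factors, upper-quartile factors, library size alone, DESeq2 1.42.0, voom of limma 3.58.1, no count filter, an offset for effective length, a block for the replicate number, a set term (libraries 1 to 3 against 4 and 5), each set alone, WT 1 and WT 5 left out, and each library left out.

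The members and lists were chosen with earlier results of these data known. The genes named are the 9 members, the other HIN-200 genes, up to 5 changed genes of each list (the 2 most highly expressed where fewer than 2 passed), 12 sensing genes fixed by name (1 is not reported here), and the 3 genes most like Tmem173 and each tested HIN-200 member. Pecam1, Kdr, Flt1, Cldn5, Slc1a3, Aqp4 and the other cell type markers given by value were named after their values were seen. Coordinates are those of GENCODE M21 on GRCm38, which matched 99.95% of the gene IDs without version. Promoter sequences are from RefSeq (GRCm38.p6).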

Additional observations from a re-analysis of the deposited data

Results flagged for a closer look

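A library was marked where its gap to the nearest other library of its genotype, divided by the range of the 5 libraries, exceeded 0.71. This held for 12 of 104 groups of 5 examined (11.5%), though the groups of Ifi202b, at 0 throughout, could not be marked. The limit is set for about 1 in 20 among independent, normally distributed values. Some groups hold few counts and the genes share libraries, so no comparison with chance is drawn. Among the members only Irf3 was marked, with 38.5 CPM in WT 4 beside 28.3 to 30.6 CPM in the other WT libraries.

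In the HIN-200 family, Ifi203 stood at 0.237 CPM in WT 5 (others 0 to 0.0427), and Ifi205 at 0.177 CPM in WT 1 (others 0 to 0.0424) and 0.304 CPM in DKO 4 (others 0 to 0.0453), all on fewer than 10 counts. In WT 3, Tmed2 stood at 115 CPM (others 49.3 to 66.3) and Zdhhc7 at 10.2 CPM (others 4.97 to 6.28). In DKO 2, Il6 stood at 6.56 CPM (others at least 9.23). In DKO 3, Phf11b stood at 31.6 CPM (others 22.2 to 24.8) and Mavs at 147 CPM (others 127 to 132). In WT 1, Cxcl10 stood at 6.56 CPM (others 2.33 to 3.35). Casp1 stood at 43.0 CPM in WT 4 (others 34.3 to 35.6) and Tlr9 at 2.45 CPM in WT 5 (others 3.68 to 4.11).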

How the results depend on the processing

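Across 12 alternatives and 10 single libraries left out, the signs of Tmem173, Irf3, Aim2, Ifi204, Ifi207 and Ifi213 held. The members were chosen on this contrast, so this is no sign of stability. All tested genes passing, 862 in the main analysis, became 1629 with DESeq2, 547 under the replicate block, 1431 with the set term, 298 in libraries 1 to 3, 57 in libraries 4 and 5, 449 without WT 1 and WT 5, and 402 to 1618 with 1 library left out (1618 without WT 3). The cause was not tested. Fewer libraries entered the fits within sets. Members passing upward became 0 under the block and in either set alone, 2 without WT 1 and WT 5, and 1 to 2 with 1 library left out. Those passing downward became 2 with upper-quartile factors, no factors, DESeq2 and the set term, 0 in libraries 4 and 5, and 1 to 2 with 1 library left out. Other pathway genes passing upward, 20 in the main analysis, became 12 with upper-quartile factors, 13 by library size alone, 8 under the block, 1 in libraries 1 to 3, 0 in libraries 4 and 5, 13 without WT 1 and WT 5, and 7 to 26 with 1 library left out. Those passing downward, 2, became 6 with upper-quartile factors, no factors, DESeq2 and the set term, 1 with no count filter, the length offset, the block, libraries 1 to 3, or WT 1 and WT 5 left out, 0 in libraries 4 and 5, and 1 to 3 with 1 library left out. The gain of Bhlhe41 was 13.1 CPM with library size only (exact permutation p = 0.0556).

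The replicate numbers did not pair the libraries. Deviations of libraries with the same number correlated at -0.096, 0.064, -0.235, 0.199 and 0.105, and the best partner was the library of the same number only for WT 4. Under the block, 0 members passed upward.

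Signs turned only for small log2 differences that passed neither way. Tbk1 was at 0.006 without WT 1 and WT 5, and Trex1 at -0.017 in libraries 4 and 5. Ifi208 was at 0.07 in libraries 4 and 5, 0.102 without WT 1 and WT 5 and -0.358 to 0.158 with 1 library left out, and Ifi211 at -0.178 to 0.576 with 1 left out. Pycard was at -0.09 with upper-quartile factors, -0.061 by library size alone, -0.071 in libraries 1 to 3 and -0.045 to 0.078 with 1 library left out. Unc93b1 was at -0.057, -0.029 and -0.097 in the same settings and -0.003 to 0.082 with 1 library left out. Casp1 was at 0.008 with no count filter, 0.004 in libraries 1 to 3 and -0.038 to 0.059 with 1 library left out. Lgmn was at 0.02 in libraries 4 and 5 and -0.082 to 0.013 with 1 library left out, and Tlr9 at 0.241 in libraries 4 and 5. Ddx58 was at -0.051 with upper-quartile factors, -0.022 by library size alone, -0.141 with the length offset, -0.055 in libraries 1 to 3, -0.095 without WT 1 and WT 5, and -0.044 to 0.113 with 1 library left out. Depth limits Ifi207, Ifi213, Mndal and Mlkl, which rest on fewer than 50 counts in any library.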
